A study of Sorghum bicolor with 4 samples.

Results

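The genes described here were abundant in the sorghum stem during grain filling, at the milk stage, and at least 3-fold lower at physiological maturity. They are the table rows that carry exactly 1 gene identifier, reach 100 FPKM at the milk stage and are at least 3-fold lower at maturity as a plain ratio of the deposited values. FPKM are fragments scaled to the length of a locus and to the number of mapped fragments. By this rule 161 genes of 34458 table rows were members, and 31423 of the rows carry exactly 1 identifier. The members were chosen by the same values that are given below, so their levels, folds and shares of the FPKM sum are a description and carry no test.

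The samples were middle stem internodes of the sweet sorghum line ICSA38, grown in an open field. Physiological maturity and the milk stage have 2 libraries each, from total RNA, and both stages share line, tissue and growing conditions. The deposited table holds 1 FPKM value per stage, whose headings carry no replicate number, so each is read as a combined value. Thus no value has a standard deviation and no difference can be set against the spread between libraries. The labels do not say whether the libraries came from separate plants. The number of fragments behind the values is unknown. In RNA from a whole internode, fewer cells of a type and less RNA per cell cannot be told apart.

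A sorghum internode holds vascular bundles in a pith of storage parenchyma, inside a rind of thick-walled cells. In sweet sorghum the parenchyma takes up sucrose from the phloem and stores it in the vacuole. At the milk stage the grain is a strong sink for assimilates, and at physiological maturity grain filling has ended while stem cells are still alive. The table does not pair identifiers with gene names or functions, and 0 of the 161 member identifiers were found in the RefSeq gene table, which lists genes under other names. No role is therefore given to any member below, and the labelled tissue could not be checked against marker genes. The number after "Sobic." in an identifier gives the chromosome, and the digits after G number the gene models along it.

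The members were few and held a large part of the milk-stage transcripts. They made up 0.467% of the table rows. They summed to 17331 FPKM at maturity and 112087 FPKM at the milk stage, which is 2.60% of the FPKM sum at maturity and 14.0% at the milk stage. The sum of the whole table was 134066 FPKM lower at maturity, and the sum of the members alone was 94756 FPKM lower, which equals 70.7% of that net difference. Counting each row that was lower at maturity, the members accounted for 36.6% of the summed decreases. Without the members, the remaining rows summed to 649436 FPKM at maturity and 688747 FPKM at the milk stage, a ratio of 0.943, against 0.833 for the whole table. Each member is at least 3-fold lower at maturity by the rule, so leaving the members out had to raise this ratio. These differences between stage sums depend on how the libraries were scaled, which is not given. Scaling the stages to equal sums would leave no net difference for the members to be set against.

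Of the 1234 rows with 1 identifier and at least 100 FPKM at the milk stage, the 161 members are 13.0%. In the opposite direction, 12 of the same 1234 rows (0.972%) were at least 3-fold higher at maturity. Over all 15479 rows with 1 identifier and at least 1 FPKM at the milk stage, 7.68% were at least 3-fold lower at maturity. The rule fixes both a high starting level and a fold, so nothing is read from such shares about the members. The share of rows at least 3-fold lower at maturity was 9.32% among the 6892 rows at 1 to 10 FPKM at the milk stage and 5.25% among the 7353 rows at 10 to 100 FPKM. It was 11.2% of the 1070 rows at 100 to 500 FPKM and 25.0% of the 164 rows from 500 FPKM. Of the 14 abundant rows with no identifier, 7.14% were at least 3-fold lower at maturity, and of the 136 with several identifiers 13.2%. The mirror choice, rows with at least 100 FPKM at maturity and at least 3-fold lower at the milk stage, held 72 of 1090 rows, or 6.61%. The 1073 other rows with 1 identifier and at least 100 FPKM at the milk stage were not matched to the members in abundance. They held 42.7% of the FPKM sum at maturity and 41.2% at the milk stage. Their median log2 ratio of maturity over milk stage was -0.32. That of the members was -2.28, and that of the 18749 rows with at least 1 FPKM at either stage was 0.04.

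**Figure D1:**
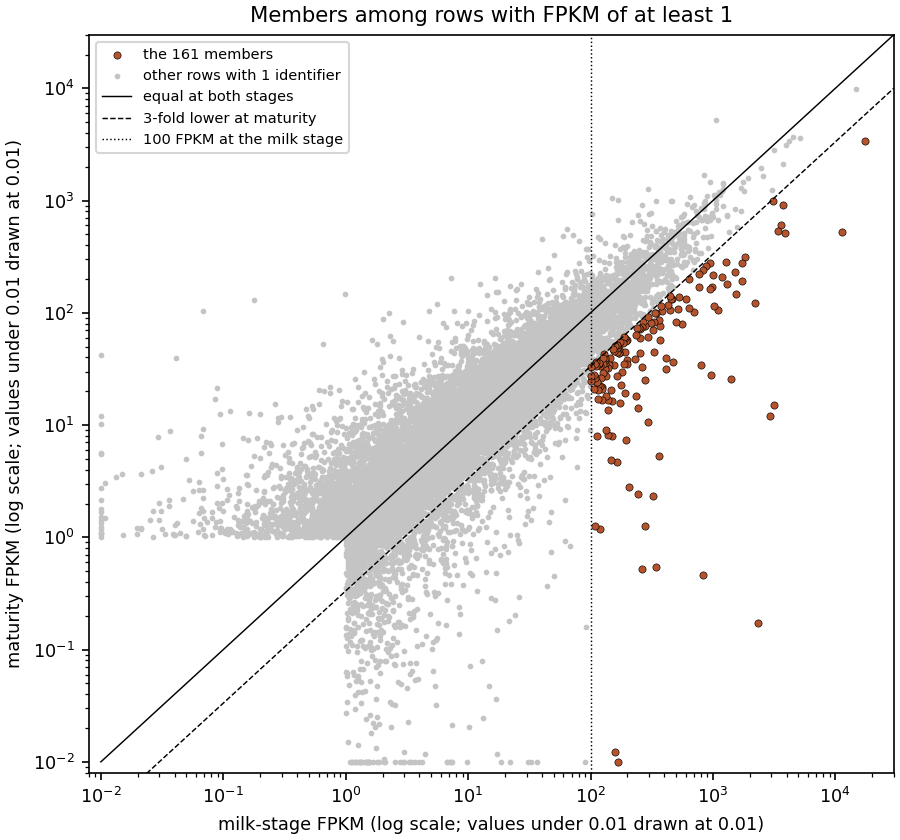
FPKM at maturity against FPKM at the milk stage, both on log scales, for rows with 1 identifier and at least 1 FPKM at either stage. The 161 members lie right of the dotted line at 100 FPKM and on or below the dashed line of a 3-fold difference, with 1 member listed at 0 at maturity drawn at 0.01.

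At the limits of the rule the members pass without a gap into the rows left out. The members nearest to the fold limit were Sobic.007G008800, Sobic.002G034800 and Sobic.009G245000, which were 3.01-fold, 3.04-fold and 3.08-fold lower at maturity. Just outside lay Sobic.008G111800, Sobic.001G129000 and Sobic.006G125000, at 2.96-fold, 2.96-fold and 2.95-fold lower. At the abundance limit, Sobic.001G391300, Sobic.001G317000 and Sobic.004G244100 were inside at 101 FPKM each at the milk stage. Sobic.004G285800 and Sobic.001G125100 were outside at 99.9 and 99.4 FPKM, and Sobic.004G013000 at 98.8 FPKM. One of these excluded rows, Sobic.001G125100, was 11.0-fold lower at maturity, a larger fold than that of most members.

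The folds of the members were skewed, with many close to the limit and a long tail. The median member was 4.87-fold lower at maturity, and the middle range ran from 3.57-fold to 9.0-fold. Of the 161 members, 58 were 3- to 4-fold lower, 24 were 4- to 5-fold lower and 41 were 5- to 10-fold lower. Beyond that, 15 were 10- to 20-fold lower, 7 were 20- to 50-fold lower and 16 at least 50-fold lower, 1 of which was listed at 0 at maturity. At maturity the median member was at 40.0 FPKM, against 235 FPKM at the milk stage. Ranked over all rows of the table, the median member stood at place 3442 at maturity and at place 511 at the milk stage.

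The group's FPKM was concentrated in its most abundant genes. Of the 59 rows with 1 identifier and at least 1000 FPKM at the milk stage, 23 were members, and their median fold was 7.16, against 5.25 for the 18 members at 500 to 1000 FPKM. The medians were 4.62 for the 43 members at 200 to 500 FPKM and 4.31 for the 77 members at 100 to 200 FPKM. These medians were not computed under other scalings. With quantile normalization Sobic.001G141300, the most abundant member, was 3.52-fold lower in place of 5.18-fold. Sobic.001G391300, at 101 FPKM at the milk stage, was 3.48-fold lower in place of 3.64-fold. The 23 most abundant members held 65.8% of the members' milk-stage sum. The top 2 members alone held 22.5% of the members' sum at maturity and 25.7% at the milk stage, and the top 10 held 43.2% and 49.0% at these stages. Of the 20 most abundant rows of the whole table, 1 was a member at maturity and 9 at the milk stage. Among the 100 most abundant rows these counts were 4 at maturity and 31 at the milk stage.

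**Figure D2:**
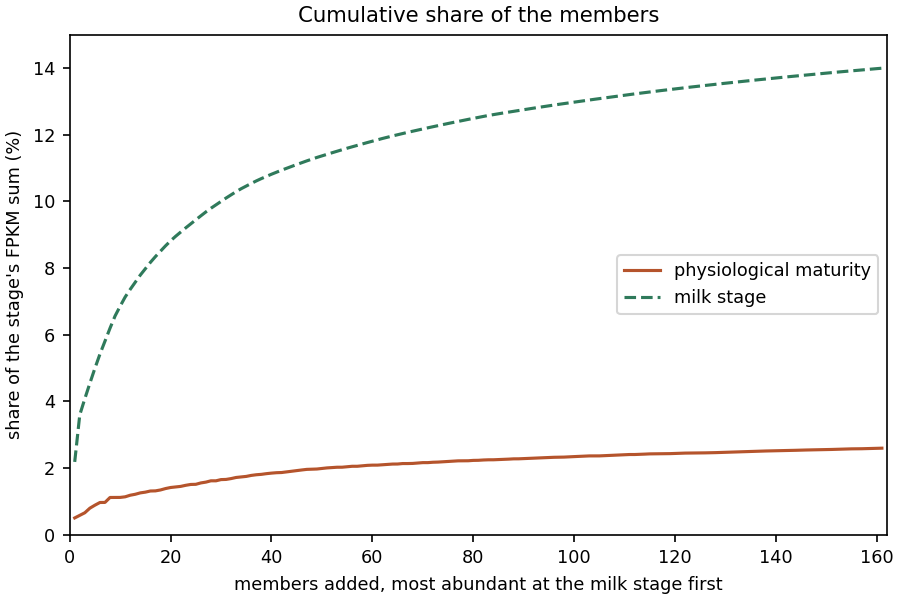
Cumulative share of each stage's FPKM sum, in percent, as the 161 members are added in order of milk-stage FPKM. The line for maturity ends at 2.60% and that for the milk stage at 14.0%, and the steepest part of both lies in the first 10 members.

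The members that stayed abundant at maturity formed the largest part by FPKM. A level of 100 FPKM or more was left at maturity in 40 of the 161 members, and these held 75.6% of the members' sum at maturity and 68.7% at the milk stage. Sobic.001G141300 was the only member above 1000 FPKM at maturity, with 3380 FPKM at maturity and 17518 FPKM at the milk stage, 5.18-fold lower. It was the most abundant row of the table at the milk stage and held 0.507% of the FPKM sum at maturity and 2.19% at the milk stage. Sobic.001G012500 had 524 FPKM at maturity and 11285 FPKM at the milk stage. Its 21.6-fold difference was the largest among the members left at 100 FPKM or more.

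Behind these came a group of members between 3101 and 3879 FPKM at the milk stage, most of which were left with 510 to 988 FPKM. Sobic.002G243500 was at 510 FPKM at maturity and 3879 FPKM at the milk stage. Sobic.010G149300 was at 914 FPKM at maturity and 3713 FPKM at the milk stage. Sobic.007G216300 was at 601 FPKM at maturity and 3601 FPKM at the milk stage. These 3 genes lay close together at the milk stage and within a factor of 2 of each other at maturity. Sobic.003G305700 was at 539 FPKM at maturity and 3410 FPKM at the milk stage. Sobic.003G397400 was at 988 FPKM at maturity and 3101 FPKM at the milk stage, and at 3.14-fold lower it stood nearest to the fold limit among the 15 most abundant members. With quantile normalization the folds of Sobic.010G149300 and Sobic.003G397400 were 2.68 and 2.02, which is outside the rule, and those of Sobic.007G216300, Sobic.003G305700 and Sobic.002G243500 were 3.69, 3.94 and 4.96. The folds of the other abundant members varied more widely. Sobic.002G393400 was at 122 FPKM at maturity and 2221 FPKM at the milk stage, 18.2-fold lower. Sobic.003G350700 was at 315 FPKM at maturity and 1835 FPKM at the milk stage, 5.82-fold lower. Of the remaining genes of this size, Sobic.007G197200 and Sobic.010G073700 were 9.0-fold and 10.4-fold lower, with 191 and 147 FPKM at maturity against 1720 and 1535 FPKM at the milk stage.

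In 3 other members of similar milk-stage abundance the values were 207-fold to 13538-fold lower at maturity. Sobic.010G134700 was at 15.2 FPKM at maturity and 3136 FPKM at the milk stage, 207-fold lower. Sobic.009G161700 was at 12.1 FPKM at maturity and 2930 FPKM at the milk stage, 243-fold lower. Sobic.001G425600 was at 0.172 FPKM at maturity and 2331 FPKM at the milk stage, a 13538-fold difference whose size depends on a maturity value far below 1 FPKM. These 3 genes were among the 15 most abundant members, and their places in the table at maturity were far behind those of the other 12.

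**Figure D3:**
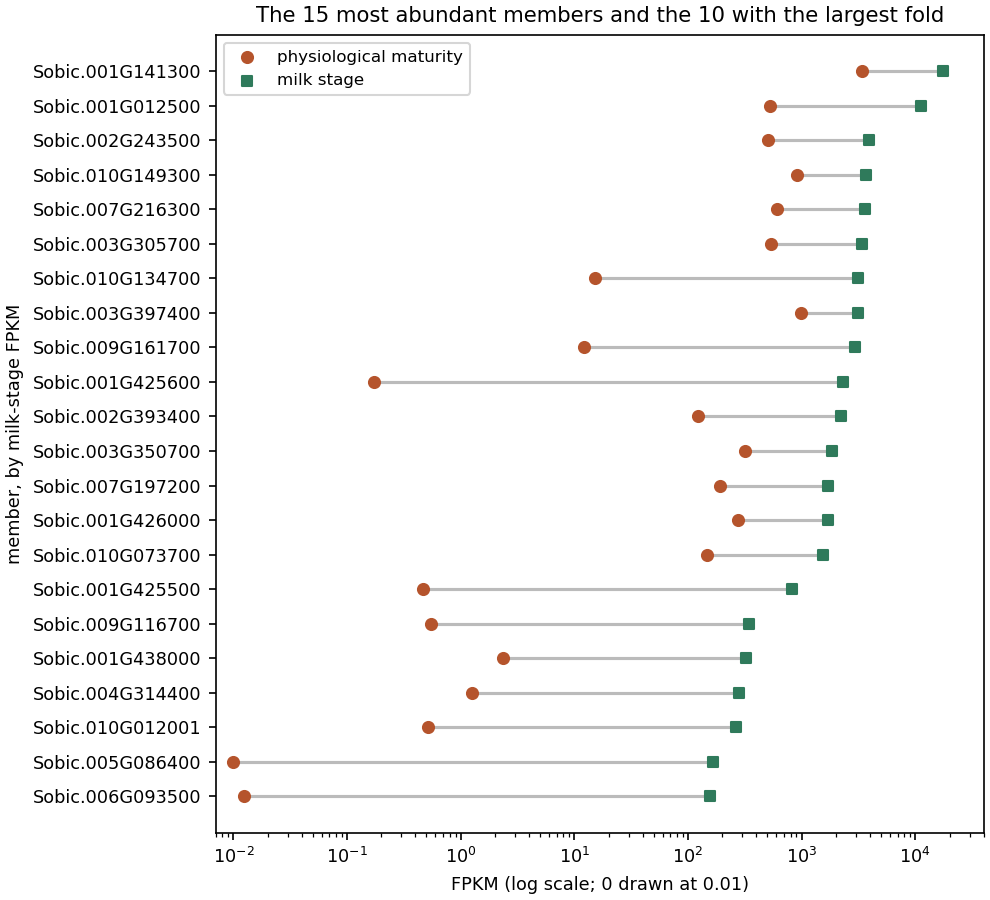
FPKM on a log scale at maturity (circles) and the milk stage (squares) for the 15 most abundant members and the 10 with the largest fold, which overlap in 3 genes. Sobic.010G134700, Sobic.009G161700 and Sobic.001G425600 share the milk-stage range of the abundant members but end at 15.2, 12.1 and 0.172 FPKM at maturity.

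A small set was left almost without signal. Under 1 FPKM was left at maturity in 6 of the 161 members, which together had 1.71 FPKM at maturity and 4092 FPKM at the milk stage. Sobic.005G086400 was listed at 0 at maturity and at 167 FPKM at the milk stage, so no fold is given. Sobic.006G093500 was at 0.0123 FPKM at maturity and 158 FPKM at the milk stage. Sobic.001G425500 was at 0.464 FPKM at maturity and 828 FPKM at the milk stage. The set spans a wide range of milk-stage levels, with Sobic.001G425600 at its top. Sobic.009G116700 was at 0.546 FPKM at maturity and 344 FPKM at the milk stage, 629-fold lower. Sobic.010G012001 was at 0.517 FPKM at maturity and 265 FPKM at the milk stage, 512-fold lower. Folds against such low values depend on the pseudocount, and after adding 1 FPKM to both stages Sobic.001G425600 was 1989-fold, Sobic.001G425500 566-fold and Sobic.006G093500 157-fold lower. Without the fragment numbers, the error of values this low is unknown.

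A further 14 members were left with 1 to 10 FPKM at maturity. They had a median of 4.77 FPKM at maturity and 158 FPKM at the milk stage, and were 14.3-fold to 223-fold lower. Sobic.004G314400 was at 1.26 FPKM at maturity and 280 FPKM at the milk stage, 223-fold lower. Sobic.001G438000 was at 2.35 FPKM at maturity and 326 FPKM at the milk stage, 139-fold lower. These lie at the upper end of the class in fold. The remaining 101 members were left with 10 to 100 FPKM, with medians of 35.3 FPKM at maturity and 171 FPKM at the milk stage and a median fold of 4.27. Sobic.010G134700 and Sobic.009G161700, described above, belong to this largest class and are its extremes in fold.

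The members came from all 10 chromosomes, most of them near the share of other abundant genes there. Chromosome 1 held 37 members, 23.0% of them, beside 21.5% of the rows with at least 100 FPKM at the milk stage and 16.9% of all rows with 1 identifier. Chromosome 2 held 26 members and chromosome 4 held 22, which is 16.1% and 13.7% of the members, beside 12.9% and 11.6% of the abundant rows. Chromosome 3 held 16 members, 9.94% of them, beside 14.3% of the abundant rows. Chromosome 10 also held 16, chromosome 9 held 14, chromosome 7 held 13 and chromosome 6 held 10. Chromosomes 5 and 8 had the fewest, with 4 and 3 members. Their shares of the members, 2.48% and 1.86%, lie below their 7.13% and 5.93% of all rows, but nearer to their 2.92% and 3.89% of the abundant rows. Of the abundant rows of a chromosome, between 6.25% (chromosome 8, 3 of 48) and 16.4% (chromosome 2, 26 of 159) were members. With so few members on some chromosomes, these shares rest on small counts.

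**Figure D4:**
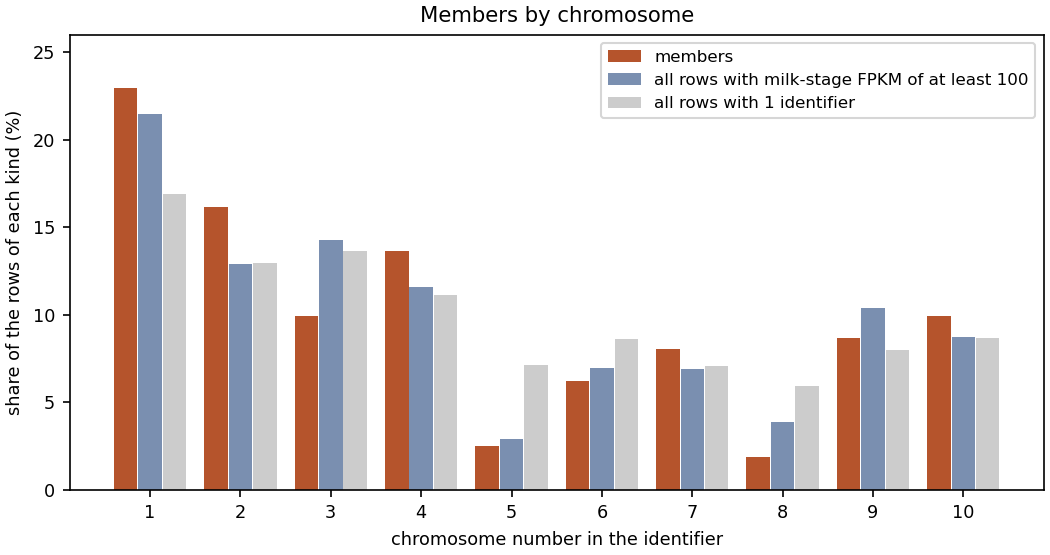
Share in percent, by chromosome, of the 161 members, of all rows with at least 100 FPKM at the milk stage and of all rows with 1 identifier. Bars for members follow those for abundant rows more closely than those for all rows on chromosomes 1, 5 and 8.

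By FPKM the largest part of the members' sum lay on chromosome 1, mostly in 2 genes. The 37 members of chromosome 1 summed to 6078 FPKM at maturity and 44083 FPKM at the milk stage, 39.3% of the members' milk-stage sum. Of that milk-stage sum, Sobic.001G141300 alone held 15.6% and Sobic.001G012500 held 10.1%. All rows of the chromosome with 1 identifier summed to 159928 FPKM at the milk stage, of 800834 FPKM in the whole table. The 37 members held 5.34% of the FPKM of the chromosome's rows at maturity and 27.6% at the milk stage, and much of this was the same 2 genes. On chromosome 10 the members held 4.18% of the chromosome's sum at maturity and 21.0% at the milk stage, and on chromosome 7 they held 3.49% and 18.8%. Chromosomes 2, 3 and 9 lay lower, with 2.71%, 3.46% and 1.64% at maturity and 13.1%, 13.2% and 12.1% at the milk stage. On chromosome 4 the shares were 1.76% at maturity and 9.27% at the milk stage, and on chromosome 6 they were 0.829% and 6.61%. Chromosomes 5 and 8 were lowest, with 0.404% and 0.578% at maturity and 2.46% and 2.49% at the milk stage. The median fold of the members ranged from 4.14 on chromosome 2 to 6.02 on chromosome 1.

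With the rows of each chromosome cut into 5 equal parts in identifier order, the parts held 35, 25, 31, 42 and 28 members from low to high numbers. In percent of the members this is 21.7, 15.5, 19.3, 26.1 and 17.4, and for the abundant rows outside the rule it is 20.9, 15.5, 16.9, 23.6 and 23.2. The part with the highest numbers showed the largest gap between them.

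Members with neighbouring identifiers were few. In identifier order, 6 of the 161 members (3.73%) had another member in the row just before or after, as did 18 of the 1073 other abundant rows (1.68%) and 1.03% of all rows. Within 3 rows the counts were 11 members (6.83%) and 41 other abundant rows (3.82%). Within 10 rows they were 21 members (13.0%) and 125 other abundant rows (11.6%). The difference between members and other abundant rows rests on 6 members at the shortest distance and was not tested. These 6 are adjacent pairs in which each member counts for the other, so they are not separate cases. The pairs are Sobic.001G425500 with Sobic.001G425600, Sobic.007G143100 with Sobic.007G143200 and Sobic.009G161500 with Sobic.009G161700. Rows with several identifiers are left out of this order. With such rows kept in it, an order chosen after the data were seen, 4 members (2.48%) had another in the row just before or after, beside 1.65% of other abundant rows and 0.985% of all rows. Within 3 rows it was 8 members (4.97%), beside 3.80% of other abundant rows and 2.89% of all rows.

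The 11 members within 3 rows of another formed 5 stretches. The stretch with 3 members begins with Sobic.001G425500 and Sobic.001G425600, in rows next to each other and both under 1 FPKM at maturity. Sobic.001G425600 was 0.371 times as abundant as Sobic.001G425500 at maturity and 2.81 times at the milk stage. The rows on either side were far closer between the stages. Sobic.001G425400 was at 5.76 FPKM at maturity and 3.05 FPKM at the milk stage. Sobic.001G425800 was at 34.9 FPKM at maturity and 36.2 FPKM at the milk stage. The large differences in this stretch were those of the members. The stretch ends with Sobic.001G426000, at 278 FPKM at maturity and 1715 FPKM at the milk stage, only 6.17-fold lower.

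The pair Sobic.007G143100 and Sobic.007G143200 had nearly the same fold. Sobic.007G143100 was at 36.3 FPKM at maturity and 472 FPKM at the milk stage, 13.0-fold lower. Sobic.007G143200 was at 18.1 FPKM at maturity and 235 FPKM at the milk stage, also 13.0-fold lower. The first was 2.00 times as abundant as the second at maturity and 2.01 times at the milk stage. How fragments that match both genes were counted is not given in the sources used here, and no sequence of these genes was used, so their values are uncertain as separate measurements. The next rows on either side did not share this fold. Sobic.007G143000 was at 32.9 FPKM at maturity and 58.6 FPKM at the milk stage, and Sobic.007G143400 was at 26.9 and 20.6 FPKM at these stages.

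In the other stretches the neighbours differed more from each other. Sobic.009G161500 was at 116 FPKM at maturity and 373 FPKM at the milk stage, 3.21-fold lower. The next row of the order, Sobic.009G161700, was 243-fold lower, so that it was less abundant than Sobic.009G161500 at maturity and 7.85 times as abundant at the milk stage. The numbers of this pair are not consecutive, and neither are those of their assembled loci, while the other adjacent pairs have consecutive locus numbers. With rows of several identifiers kept in the order, 4 members stayed adjacent to another. This pair was then the one separated, by a row with several identifiers. Sobic.002G243200 was at 132 FPKM at maturity and 604 FPKM at the milk stage, 4.58-fold lower, beside the 7.61-fold of Sobic.002G243500. The intervening Sobic.002G243400 was under 1 FPKM at both stages. Sobic.001G032800 was at 69.9 FPKM at maturity and 323 FPKM at the milk stage, 4.62-fold lower. Sobic.001G033100 was at 71.4 FPKM at maturity and 255 FPKM at the milk stage, 3.57-fold lower. Between them lay Sobic.001G032850 and Sobic.001G032900, weakly expressed at 1.18 and 2.95 FPKM at maturity against 3.40 and 9.71 FPKM at the milk stage.

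**Figure D5:**
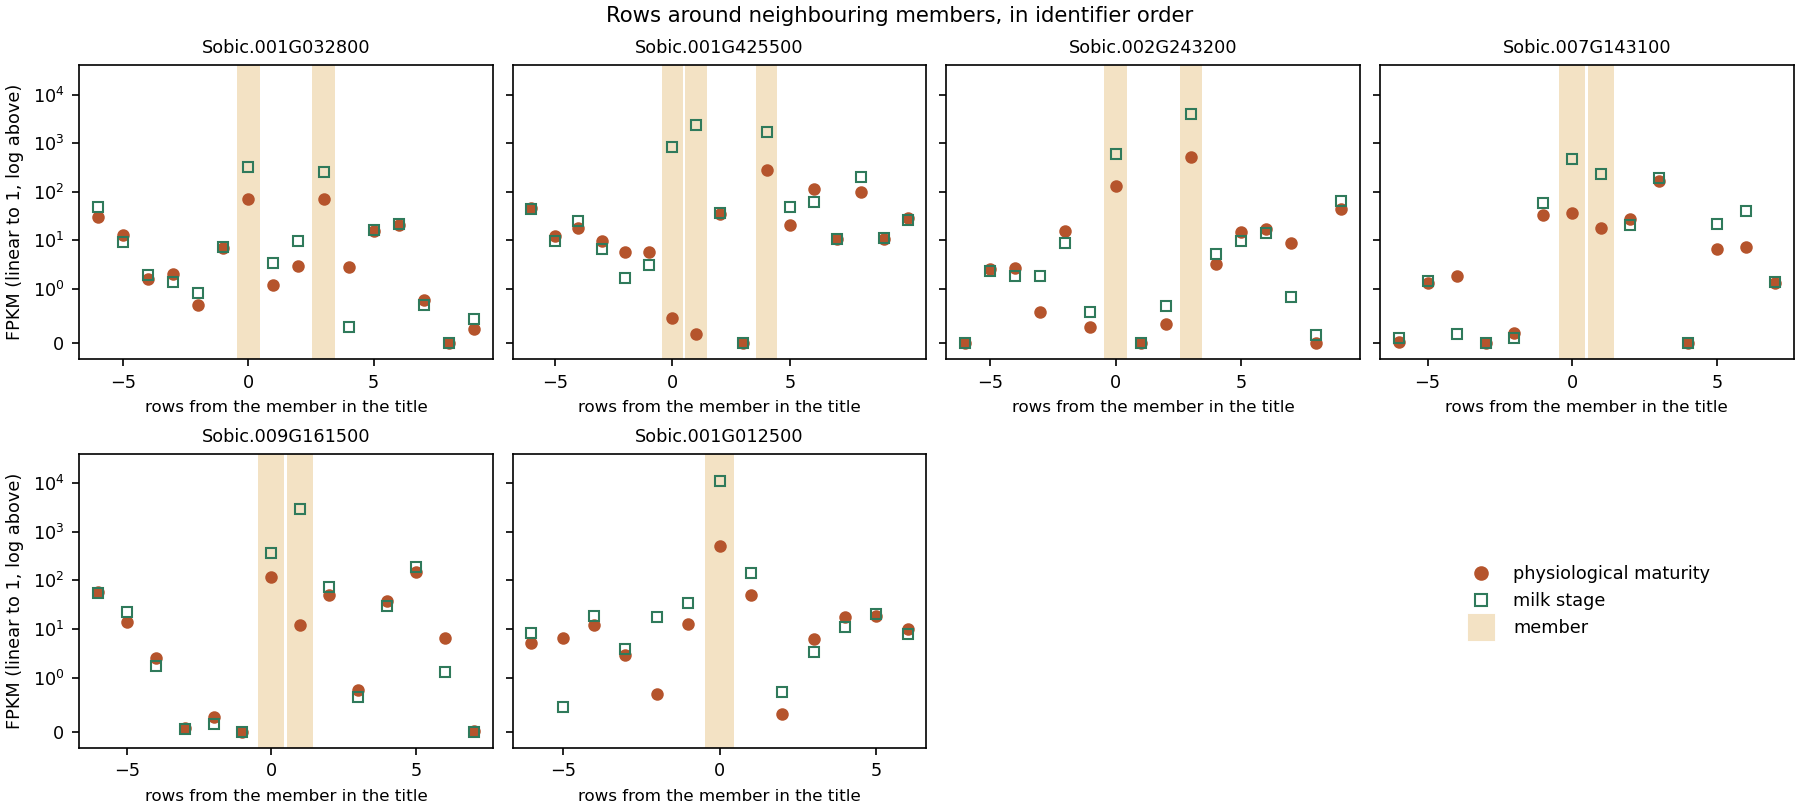
FPKM at maturity (filled circles) and the milk stage (open squares) by place in identifier order, for the 5 stretches with members within 3 rows of each other and for the single member Sobic.001G012500. The axis is linear to 1 FPKM and logarithmic above, and shaded places are members. Some rows beside the members were near equal at the stages, as Sobic.001G425800. Others were lower at maturity, as Sobic.001G032900 (3.30-fold), or higher, as Sobic.001G033300 (2.76 FPKM at maturity and 0.290 FPKM at the milk stage).

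Around the second most abundant member, Sobic.001G012500, the nearest rows were lower at maturity too, at far lower abundance. Sobic.001G012600 was at 50.7 FPKM at maturity and 144 FPKM at the milk stage, and at 2.84-fold lower it stayed outside the rule. Sobic.001G012400 was at 12.6 FPKM at maturity and 35.1 FPKM at the milk stage, 2.78-fold lower. Sobic.001G012300 was at 0.691 FPKM at maturity and 18.1 FPKM at the milk stage, 26.1-fold lower, but too low at the milk stage to be a member. Whether fragments of the abundant gene were counted on its neighbours was not tested.

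Over all members, the rows beside them had a median ratio near that of rows elsewhere. The nearest row with at least 1 FPKM on each side, members left out, gave 312 rows with a median log2 ratio of maturity over milk stage of -0.12. The same median was -0.0031 for the 2052 rows beside other abundant rows and 0.04 for all 16379 such rows. Of the rows beside members, 8.01% were at least 3-fold lower at maturity and 8.97% at least 3-fold higher. For the rows beside other abundant rows these shares were 7.50% and 7.12%. Beside the members that were at least 50-fold lower, 5 of 29 rows (17.2%) were at least 3-fold lower and 2 (6.90%) at least 3-fold higher. For all 16379 rows outside the members with at least 1 FPKM at either stage, these shares were 6.27% and 8.24%. These shares were not tested.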

How the data were processed

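RNA from 4 libraries, 2 per stage, was measured by sequencing. A modified Trizol extraction preceded stranded total RNA library preparation, per the labels' protocols. The submitters' processing notes name HISAT2 2.0.5, Bowtie2 2.2.9, cutadapt 1.8.1 and Cuffdiff without saying what each did. Not given in the sources used here were the build, the strand setting and library scaling. What the authors deposited is 1 FPKM value per locus and stage, so depth and replicate error are unknown and no test was run.

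Members were rows with 1 identifier, at least 100 FPKM at the milk stage and a maturity value at least 3-fold lower, with no pseudocount. The members and lists were chosen with earlier results of these data known. Named were the 15 most abundant members, the 10 with the largest fold and members within 3 rows of each other. Also named were the 3 rows nearest to each limit on both sides and members numbered near Sobic.001G012300. The plan listed Sobic.001G012200, Sobic.001G012300 and Sobic.001G012400 as the dhurrin gene group, which could not be checked here. Other identifiers in the text were chosen after their values were seen. Planned lists of gene functions and of markers could not be formed, since 0 member identifiers matched the reference gene table. Identifier order stood in for position. Alternatives were other limits, pseudocounts, scalings, denominators and neighbour distances. The member rule, the scalings and the neighbour count were tested on simulated data. Python 3.11.15, numpy 2.4.6, pandas 2.3.3 and matplotlib 3.10.9 were used.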

Additional observations from a re-analysis of the deposited data

How the results depend on the processing

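The number of members, 161, followed the limits, with 242 at a minimum of 50 FPKM, 84 at 200 FPKM, 317 with a 2-fold limit and 79 with a 5-fold limit. Other scalings gave 120 to 168 rows. With equal sums, which raised the median log2 ratio of all rows by 0.26, 120 rows passed and all 120 were members. Quantile normalization left 127 rows, all of them members, and median-of-ratios scaling gave 168 rows, with all 161 members among them. Equal sums and median-of-ratios scaling change all maturity values by a common factor, so for these the overlap with the members was fixed in advance. The share of the FPKM sum at maturity, 2.60%, was 5.46% with the 2-fold limit and 1.38% with the 5-fold limit. The 6 members with another in the next row became 11 within 3 rows and 21 within 10 rows, 15 and 33 among rows with at least 1 FPKM, and 19 within 10 rows with rows of several identifiers kept. The share of members on chromosome 5 relative to its share of rows was 0.348 over all rows, 0.528 over rows with at least 1 FPKM and 0.852 over abundant rows. On chromosome 8 it was 0.314 over all rows and 0.479 over abundant rows. The log2 ratios of the 33 named members with a value above 0 at maturity stayed negative in 165 of 165 values under 5 alternatives, and 2 values moved by over 1.5 times, Sobic.003G397400 to -1.01 with quantile normalization and Sobic.006G093500 to -7.29 with a pseudocount of 1. As plain folds more of them moved by over 1.5 times, 6 with quantile normalization, 6 with a pseudocount of 1 and 2 with 0.1. These included Sobic.001G012500 at 14.3-fold with quantile normalization, and Sobic.009G116700 at 223-fold, Sobic.010G012001 at 175-fold and Sobic.004G314400 at 124-fold with a pseudocount of 1. Of the 33, the fold was under the limit of 3 in 7 with equal sums, 7 with quantile normalization and 2 with a pseudocount of 1. Since members are at least 3-fold apart, the kept signs follow from the rule. No paired analysis was possible because each stage has a single combined column, and for the same reason fits without each library were not run.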

Other observations

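Rows that could not be members because they carry several identifiers included some of the same kind. Of 136 such rows with at least 100 FPKM at the milk stage, 18 (13.2%) were at least 3-fold lower at maturity, as was 1 of the 14 rows with no identifier (7.14%). The row of Sobic.003G081900 and Sobic.003G082100 was at 167 FPKM at maturity and 7808 FPKM at the milk stage, 46.8-fold lower. The row of Sobic.003G082000 and Sobic.003G082200 was at 0.610 FPKM at maturity and 709 FPKM at the milk stage. The identifiers of these rows alternate, and their values cannot be assigned to single genes.

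Of the 161 members, 5 have an identifier that does not end in 00, that is, a number between the regular steps of the numbering. This is 3.11% of the members, beside 2.89% of the other abundant rows and 14.9% of all rows with 1 identifier. Of these 5, 4 were at least 20-fold lower at maturity, against 19 of the 156 members with a regular number. The 4 were Sobic.010G012001, Sobic.009G134450 (2.44 FPKM at maturity and 246 FPKM at the milk stage), Sobic.001G170301 (1.26 and 108 FPKM) and Sobic.007G210801 (34.2 and 803 FPKM). The fifth, Sobic.001G261549, was 3.31-fold lower. Sobic.001G170301 was also the only member whose row has no assembled locus name, where 0 of the 1073 other abundant rows lack one. Over all 31423 rows with 1 identifier, 10645 lack one. These rows were chosen after their values were seen, and no test was made.

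The densest run of members was on chromosome 1, where 5 of the 7 abundant rows within 50 rows were members, from Sobic.001G422100 to Sobic.001G426000. The mean over windows of 50 rows on that chromosome was 0.353 members and 2.51 abundant rows. This run was picked as the highest of 5242 overlapping windows there and was not tested. It includes Sobic.001G425500, Sobic.001G425600 and Sobic.001G426000, the stretch described above. On the other chromosomes the highest count in such a window was 3.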
